A study of Bos taurus with 16 samples.

Results

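The cell cycle and replication genes are 40 genes that cells switch on when they copy their DNA and divide, chosen by symbol. The exon region that stands for each gene was picked by its highest mean coverage over all 16 libraries, whatever the group. Of the 40, 36 were listed with an exon in the deposited coverage file for bovine rumen papillae, and all 36 were among the 9466 genes tested, out of 12024 genes with an exon region. TOP2A, MCM2, CENPF and CDT1 were not analysed here. RNA was sequenced from 16 crossbred steers, aged 344 ± 48 days, on 1 shared ration with free access and no treatment. They were picked for their quadrant of body weight gain and feed intake, giving 4 groups of 4 steers. The groups are named by gain (HG high, LG low) and intake (HI high, LI low): HGHI, HGLI, LGHI and LGLI. Each animal gave 1 library, animals carry numbers 1 to 4 within a group as names only, and the groups were observed and not assigned, so other traits of the animals may differ with them.

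Papillae are the projections of the rumen wall, lined by a stratified epithelium in which cells divide near the base and then mature and are shed. Before DNA is copied, the origin proteins ORC1 and CDC6 load the MCM helicase. CDC45 then joins it, and PCNA and the enzymes that make nucleotides serve the copying. Cyclins A and B with CDK1, and the kinases PLK1, AURKA and AURKB, then drive the cell through mitosis, where the spindle checkpoint holds chromosomes until all are attached. Because most of these transcripts are made in cycling cells, in whole tissue fewer cells of a type and less RNA per cell cannot be told apart.

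Levels are the read coverage per base of a gene's best-covered exon region, on the authors' scale. They are per length, but they depend on the region picked, so the order of genes is only approximate. In 11 libraries described below, RRM1 averaged 14.3 at exon 19 and 6.53 at exon 16. CKS2 averaged 13.2 at exon 1 and 5.50 at exons 2 and 3. RRM1, the large subunit of ribonucleotide reductase, had the highest mean coverage over the 16 libraries (18.2), followed by CKS2 (10.5), TK1 (10.4), CENPA (10.2), CCND1 (8.77) and MCM7 (8.63). That order differed between 2 kinds of library described next: in 5 libraries RRM1 (26.5) and CENPA (16.8) averaged far above TK1 (1.43), and in the other 11 TK1 (14.5) and RRM1 (14.3) lay above CENPA (7.14). CCNE2, a cyclin of the step into DNA synthesis, had the lowest (0.657). Animals spread far more than neighbours in that order differ: CENPA, for example, ran from 1.78 to 39.1. The median mean coverage over the 36 genes was 2.63, against 4.28 over all genes tested, and 15 of the 36 lay above the latter. The regions were 77 to 5449 bases long, and 24 of them held the last exon listed for their gene. Their coverage stands for an estimated median of 51.2 reads per library, from 1.97 for CCNE2 to 1233 for CCND1, so the lowest genes rest on very few reads.

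Coverage was not even between libraries, which bears on the comparisons that follow. In 5 libraries the first exons of genes were thinly covered: animal 4 of HGHI, animals 2, 3 and 4 of HGLI, and animal 3 of LGLI. Their median log2 ratio of first exon to other exons was -3.78 to -3.09, against -2.23 to -1.02 in the other 11, over 3118 genes. High gain holds 4 of these 5 libraries, and only 1 HGLI animal is among the 11, so that group and thin first exons can hardly be told apart. Estimated depth was 11.85 to 21.25 M reads per library. As a check of the tissue, summed coverage of 13 listed markers of suprabasal and cornified epithelium was 893 to 3890 per library. That sum rests largely on KRT6A, which averaged 2419 in high gain and 1775 in low gain animals. The sum of 9 basal markers was 198 to 1338, and of 4 listed B and plasma cell markers 0 to 3.38. Summed stroma markers were at 187 to 1199. In LGLI animal 3 the stroma sum (1199) lay above the suprabasal (893) and basal (198) sums. The basal sum was 198 to 985 in the 5 libraries and 710 to 1338 in the other 11, and its part in the results below was not tested.

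The 36 genes split into opposite patterns between these library types, seen in the colour map of all members. On the log2 scale, 8 of the 36 (22.2%) were lower by more than 1 in the 5 libraries, against 32.8% of all genes tested, and 18 (50%) were higher by more than 0.5, against 33.5% of all genes. The MCM helicase shows both. MCM5 coverage was 0 to 0.5 in the 5 libraries and 1.54 to 13.3 in the other 11 (log2 difference -4.50), whereas MCM6, its partner in the same ring, was 5.67 to 14.2 and 2.76 to 9.81 (0.88). TK1, which salvages thymidine (-3.83), PLK1 (-2.92), CDC45 (-2.79) and MCM7 (-2.42) went with MCM5. RRM2 (1.08), NUSAP1 (1.13), CENPA (1.08), PCNA (0.93), CDK1 (0.91) and RRM1 (0.90) went with MCM6. These splits were not tested as results, because the libraries were set apart by their own coverage. CKS2 (-1.45) is among the 8 lower genes. Of the 36, only its region holds a first exon, the coverage by which the libraries were set apart.

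**Figure D1:**
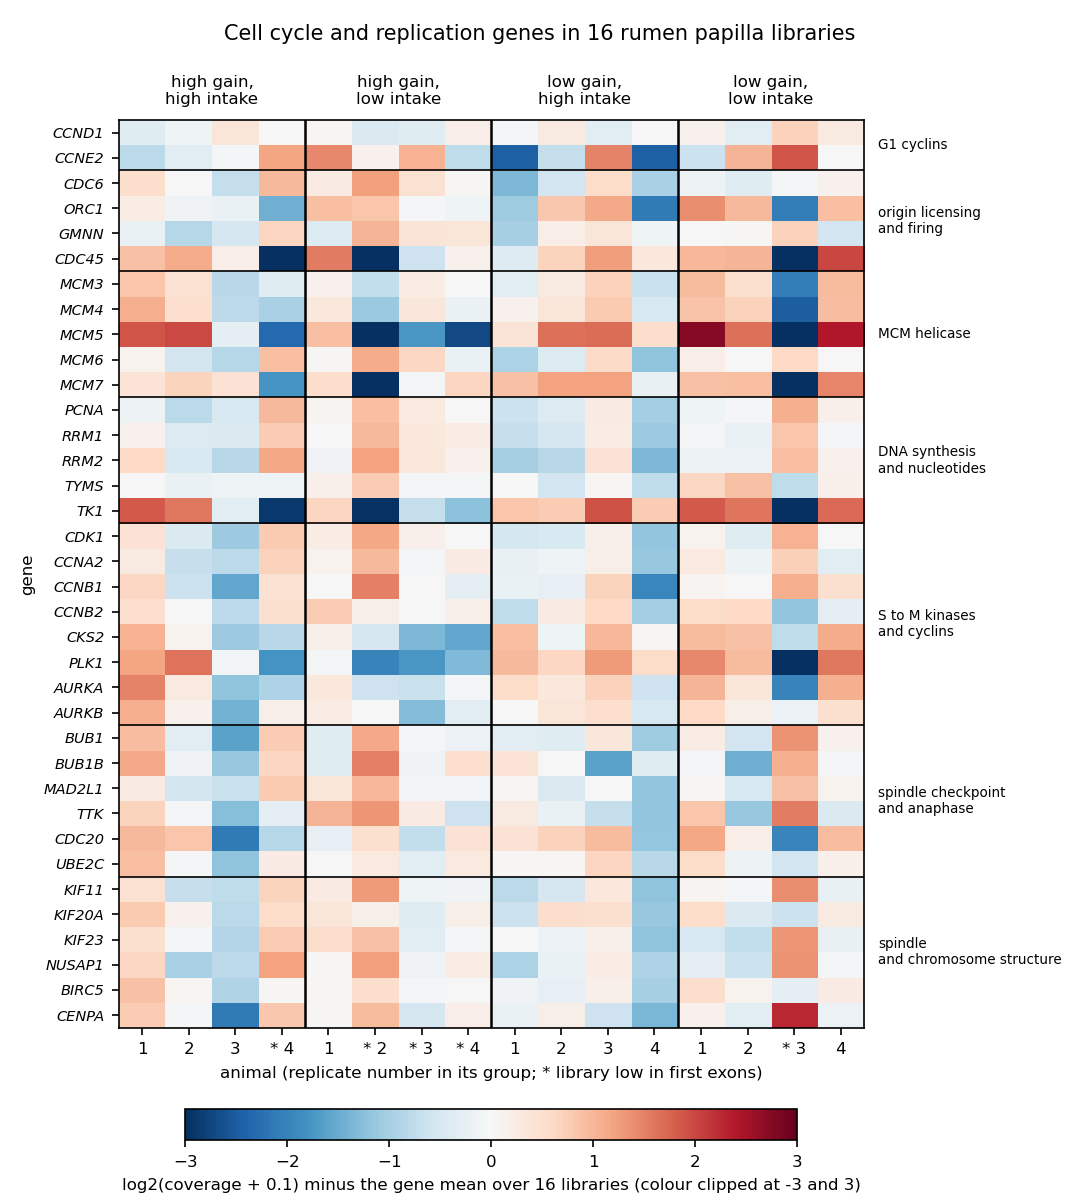
Colour map of log2(coverage + 0.1) minus the gene's mean over 16 libraries, for 36 genes in rows by role and 16 animals in columns by group; colours are clipped at -3 and 3. Columns with an asterisk are the 5 libraries low in first exons, in which MCM5 coverage was at most 0.5 and RRM2 coverage at least 7.31.

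In the genes profiled here, the direction of the difference was mostly shared by other exons and not only seen at the best-covered one. MCM5 had lower mean coverage in the 5 libraries in 17 of its 17 exon regions, MCM3 in 14 of 14, PLK1 in 9 of 9, TK1 in 7 of 7 and MCM7 in 9 of 10. In contrast, MCM6 was lower in 5 of 17, RRM1 in 2 of 19, RRM2 in 2 of 11 and CDK1 in 1 of 8. These counts leave out the size of a difference. PLK1 averaged 1.08 in the 5 and 1.11 in the 11 at exon 4, against 0.34 and 3.21 at exon 10. CKS2, which binds the mitotic kinase CDK1, changed sides within the gene: its exon 1 (chr8:90305451-90305698, UMD3.1) averaged 4.52 in the 5 libraries and 13.2 in the 11, and its exons 2 and 3 (chr8:90300556-90303218) averaged 11.3 and 5.50. MCM4 was listed on chromosome 14, in 11 regions, and also on chromosome 27, in 8, so its level may be shared between near-identical copies and is uncertain. In the 5 libraries it was lower in 8 of the 11 regions and in 8 of the 8.

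No gene passed the test for gain, intake or their interaction, among the 36 or among all 9466. For gain, 0% of all genes and 0 of the 36 passed an adjusted p of 0.05 (limma, Benjamini-Hochberg over all genes), with smallest adjusted p of 0.639 and 0.847. When LGLI animal 3 was left out, 71 genes passed for gain, and still 0 of the 36. Before adjustment, 5.32% of all genes and 2 of the 36 had p under 0.05, and the sides did not overlap in 0.0317% of all genes and in 0 of the 36. For intake the adjusted count was again 0% and 0 of the 36 (smallest adjusted p 0.312 and 0.529), the unadjusted count 8.28% and 0 of the 36, and non-overlap 0.0739% and 0 of the 36. The interaction gave 0% and 0 of the 36 adjusted, and 0.528% and 0 of the 36 unadjusted. The median SE of a member's log2 difference was 0.37 for gain and for intake. Beside it, the median absolute difference was 0.30 for gain and 0.43 for intake. The median SD between animals of 1 group was 0.76, which is the spread of single animals and not the error of a difference.

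**Figure D2:**
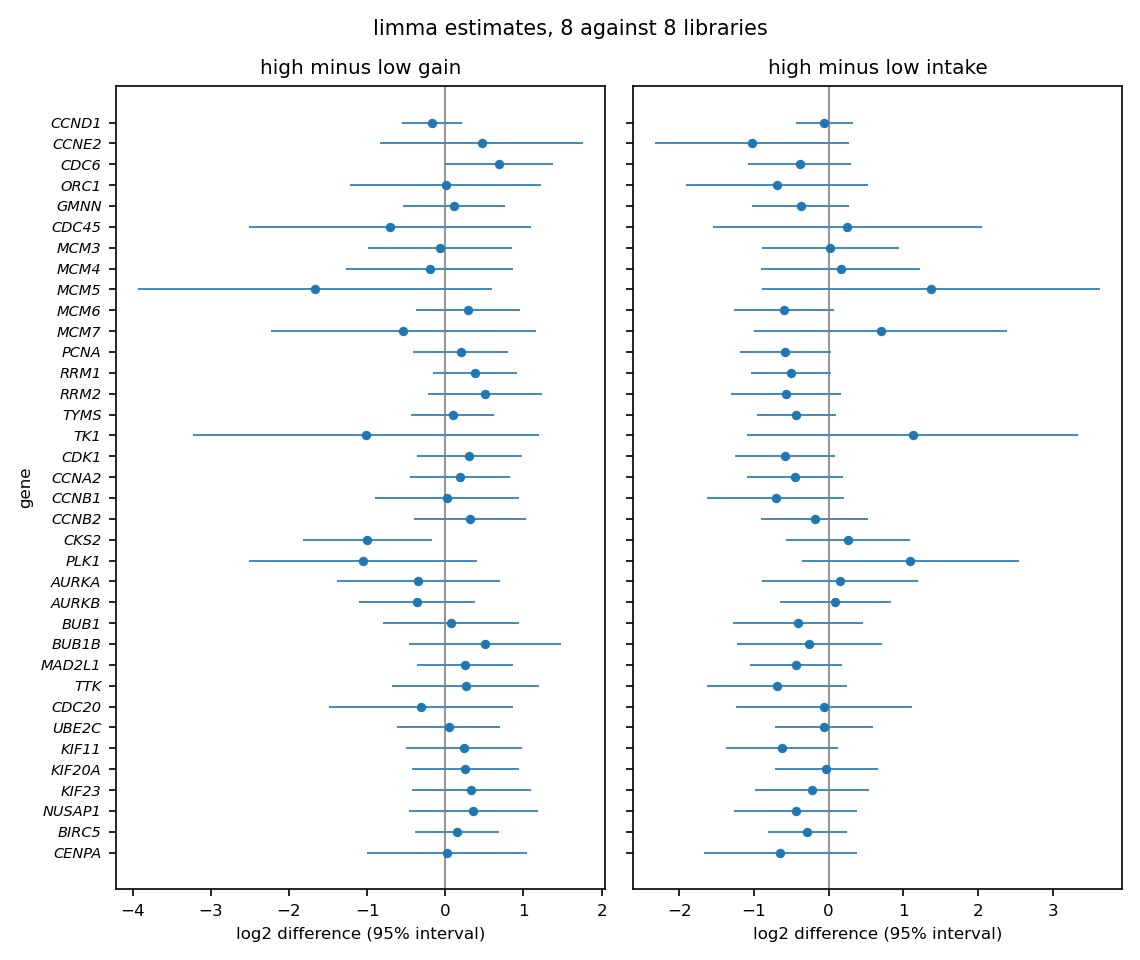
Log2 difference of each of the 36 genes between high and low gain (left) and high and low intake (right), 8 libraries a side, with 95% intervals of the limma model. For gain the intervals of CKS2 and CDC6 lie to 1 side of 0, and for intake every interval covers 0.

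Among the G1 cyclins, CCND1, cyclin D1, links growth signals to cell cycle entry. CCND1 coverage was 6.6, 7.82, 10.98 and 8.56 in animals 1 to 4 of HGHI, and 8.94, 6.29, 6.67 and 9.89 in those of HGLI. It was 8.33, 10.3, 6.8 and 8.66 for CCND1 in LGHI, and 9.33, 6.86, 13.9 and 10.3 in LGLI. The groups overlapped, and the highest animal was LGLI animal 3. The log2 difference was -0.17 for gain (SE 0.18) and -0.06 for intake (SE 0.18), both with adjusted p over 0.8 (limma). CCNE2, cyclin E2, was near the limit of detection. CCNE2 coverage was 0.21, 0.34, 0.43 and 1.13 in animals 1 to 4 of HGHI, and 1.38, 0.5, 1.02 and 0.22 in those of HGLI. It was 0, 0.23, 1.43 and 0 for CCNE2 in LGHI, and 0.25, 1, 1.93 and 0.44 in LGLI. It was listed at 0 in animals 1 and 4 of LGHI, and no other group held a 0. Its interaction estimate was the largest relative to its error (1.14, SE 1.21, adjusted p = 1.0, limma), and it reversed to -0.68 without the 5 libraries.

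Among the origin licensing and firing genes, CDC6 had the smallest p for gain, short of the threshold after adjustment. CDC6 loads the helicase at origins (chr19:41196194-41197056). CDC6 coverage was 1.54, 1.03, 0.6 and 2.15 in animals 1 to 4 of HGHI, and 1.26, 2.57, 1.47 and 1.06 in those of HGLI. It was 0.35, 0.67, 1.57 and 0.48 for CDC6 in LGHI, and 0.92, 0.78, 1.02 and 1.15 in LGLI. The highest animal, in HGLI, and the next highest, in HGHI, were both libraries low in first exons, and 7 of the 8 high gain animals lay above the low gain median. The difference was 0.69 (SE 0.32, adjusted p = 0.847, limma). It was 0.45 (SE 0.42, adjusted p = 0.735) without the 5 libraries. ORC1, its partner in origin recognition, ran from 0.18 to 3.1 over the 16 libraries with a gain difference of 0.01. GMNN, geminin, which blocks a further round of licensing, was higher in each of the 5 libraries (2.95 to 4.74) than in any of the 11 (1.08 to 2.93). CDC45 was listed at 0 in 3 of the 5.

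Of the MCM subunits, 4 of 5 had negative gain estimates and 4 of 5 positive intake estimates. Over all 9466 genes, 5106 were negative for gain and 4697 positive for intake. MCM5 (exon 16, chr5:74007805-74007936) had the largest gain and intake estimates of the 36. MCM5 coverage was 7.4, 7.89, 1.54 and 0.3 in animals 1 to 4 of HGHI, and 3.67, 0, 0.5 and 0.21 in those of HGLI. It was 2.55, 6.26, 6.34 and 2.82 for MCM5 in LGHI, and 13.3, 6.21, 0 and 10.5 in LGLI. The 5 libraries hold the 5 lowest values, and high gain holds 4 of them. The gain difference was -1.67 (SE 1.05, adjusted p = 0.847, limma) and the intake difference 1.37 (SE 1.05). Without the 5 libraries these became -0.61 (SE 0.51) and -0.45 (SE 0.51), so the intake estimate changed its sign. When each library's first-exon index, its median log2 ratio of first exon to other exons, was a term in the model, the gain estimate changed its sign too, to 0.92, and intake was at -0.13. MCM6 (exon 16, chr2:61856062-61856721) had estimates of the other sign. MCM6 coverage was 7.05, 4.44, 3.54 and 12.3 in animals 1 to 4 of HGHI, and 6.75, 14.2, 10.1 and 5.67 in those of HGLI. It was 3.34, 4.91, 9.81 and 2.76 for MCM6 in LGHI, and 7.57, 6.62, 9.9 and 6.55 in LGLI. Low intake animals were at 5.67 to 14.2 and high intake animals at 2.76 to 12.3, so the sides overlapped. The intake difference was -0.60 (SE 0.31, adjusted p = 0.529, limma), with 6 of 8 high intake animals below the low intake median. Without the 5 libraries it was -0.53 (SE 0.35), and there all 5 subunits had negative intake estimates, beside 6232 of all 9466 genes.

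Genes of DNA synthesis and nucleotide supply held the members nearest to a difference with intake. PCNA, the sliding clamp of the DNA polymerases (chr13:47788530-47792817, exons 2 to 6), was the first of them. PCNA coverage was 5.59, 3.51, 4.42 and 12.3 in animals 1 to 4 of HGHI, and 6.56, 11.7, 7.68 and 6.12 in those of HGLI. It was 3.91, 4.64, 7.37 and 3.01 for PCNA in LGHI, and 5.72, 6.08, 13.1 and 6.89 in LGLI. The 3 highest values, 11.7 to 13.1, all came from libraries low in first exons, 1 in a high intake and 2 in low intake groups. The intake difference was -0.58 (SE 0.28, adjusted p = 0.529, limma), and without the 5 libraries it was -0.51 (SE 0.26, adjusted p = 0.528). RRM1 and RRM2, which together make deoxynucleotides, followed. RRM1 coverage was 18.5, 12.6, 12.6 and 28.8 in animals 1 to 4 of HGHI, and 16.7, 33.03, 21.03 and 19.6 in those of HGLI. It was 10.4, 11.9, 19.8 and 7.89 for RRM1 in LGHI, and 16.6, 14.7, 30.2 and 16.2 in LGLI. RRM2 is the subunit that is made mainly while DNA is being copied. RRM2 coverage was 10.2, 4.83, 3.74 and 15.1 in animals 1 to 4 of HGHI, and 6.27, 15.7, 8.45 and 7.31 in those of HGLI. It was 3.29, 3.73, 9.14 and 2.58 for RRM2 in LGHI, and 5.98, 5.97, 12.7 and 7.38 in LGLI. In both genes LGHI animal 4 was lowest and HGLI animal 2 highest. The intake differences were -0.50 for RRM1 (SE 0.25) and -0.57 for RRM2 (SE 0.34), with adjusted p = 0.529 for both (limma). Without the 5 libraries they were -0.32 (SE 0.25) and -0.38 (SE 0.39).

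TYMS, thymidylate synthase, was chosen here after its values were seen, as the member whose sides parted when the 5 libraries were left out. TYMS coverage was 2.47, 2.18, 2.3 and 2.3 in animals 1 to 4 of HGHI, and 2.78, 4.3, 2.43 and 2.46 in those of HGLI. It was 2.53, 1.66, 2.59 and 1.43 for TYMS in LGHI, and 3.88, 4.7, 1.44 and 2.81 in LGLI. Every high intake animal lay below the low intake median. Among the 11 libraries the 7 high intake animals were at 1.43 to 2.59 and the 4 low intake animals at 2.78 to 4.70, with no overlap. The difference there was -0.56 (SE 0.24, adjusted p = 0.503, limma). In the 11 libraries the sides did not overlap in 1.45% of all genes for intake and in 1 of the 36, and 9.73% of all genes and 2 of the 36 (TYMS and CDC45, both with negative estimates) had unadjusted p under 0.05, with 0% and 0 of the 36 adjusted. In the same 11 libraries, gain gave 0.676% of all genes and 0 of the 36 adjusted, 12.3% and 0 of the 36 unadjusted, and no overlap in 1.11% and 0 of the 36. TK1 was 0.04 to 3.42 in the 5 libraries and 4.58 to 21.7 in the 11, and its gain difference of -1.02 (SE 1.03) over all 16 became -0.56 (SE 0.42) without the 5. With the first-exon index as a term the TK1 estimate turned to 1.64 (SE 0.32, adjusted p = 0.012, limma), the opposite sign. In that setting 1348 of the 9466 genes and 1 of the 36 passed for gain, so a call was common there. The TK1 call was the only call of a member under any setting tried.

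The S to M kinases and cyclins were split by library type as well. CDK1, the kinase of mitotic entry (chr28:16632190-16636037, exon 8), had coverage in every library. CDK1 coverage was 6.12, 3.28, 2.07 and 7.74 in animals 1 to 4 of HGHI, and 5.27, 10.1, 5 and 4.46 in those of HGLI. It was 3.08, 3.22, 4.98 and 1.93 for CDK1 in LGHI, and 4.84, 3.49, 9.27 and 4.47 in LGLI. The highest values, 10.1 and 9.27, and the lowest, 1.93 and 2.07, fell in different groups, and the ranges of all 4 groups overlapped. The intake difference was -0.58 (SE 0.31, adjusted p = 0.529, limma) and the gain difference 0.31. The latter ran from 0.17 to 0.48 with single libraries left out and turned to -0.18 with the first-exon index as a term. CCNB1, cyclin B1, followed it. CCNB1 coverage was 3.01, 1.2, 0.59 and 2.68 in animals 1 to 4 of HGHI, and 1.95, 5.64, 1.9 and 1.57 in those of HGLI. It was 1.67, 1.62, 3.14 and 0.42 for CCNB1 in LGHI, and 2.03, 1.93, 4.19 and 2.72 in LGLI. The lowest value, 0.42, was again LGHI animal 4. Its gain difference was 0.02 and changed sign when any of 6 single libraries was left out, and its intake difference was -0.71 (SE 0.43).

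**Figure D3:**
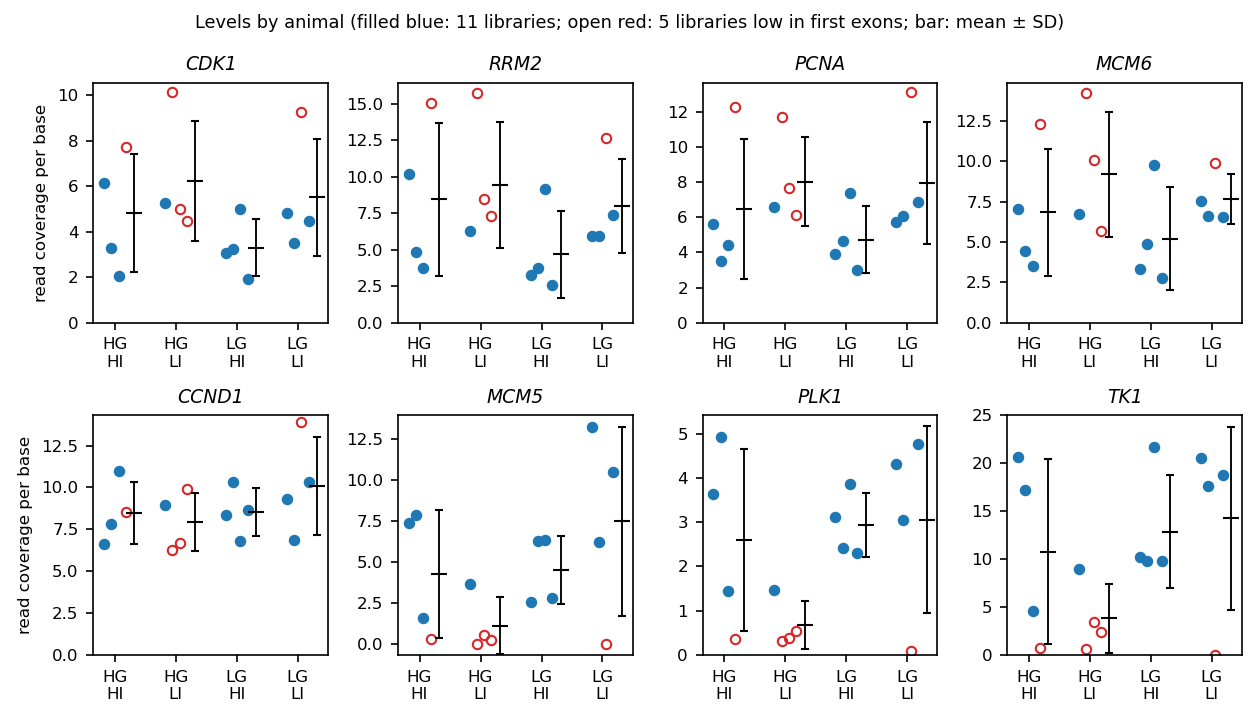
Read coverage per base in each animal for 8 genes, by group (HG and LG, high and low gain; HI and LI, high and low intake), with group mean ± SD. Open red points, the 5 libraries low in first exons, include the highest values of CDK1, RRM2, PCNA and MCM6 and hold the 5 lowest of MCM5, PLK1 and TK1.

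CKS2 was the member with the smallest p for gain, measured at exon 1. Among the 36 it was the only gene whose region held the first exon. Thin first exons are what set the 5 libraries apart, so its exon 1 level is not independent of that split. CKS2 coverage was 18.2, 9.46, 4.1 and 4.9 in animals 1 to 4 of HGHI, and 10.03, 6.2, 3.4 and 2.92 in those of HGLI. It was 16.5, 8.08, 17.5 and 9.06 for CKS2 in LGHI, and 17.1, 16.1, 5.17 and 19.3 in LGLI. The sides overlapped, with a high gain median of 5.55 against 16.3, and 7 of 8 high gain animals lay below the low gain median. The difference was -0.998 (SE 0.39, adjusted p = 0.847, limma), -0.61 (SE 0.40) without the 5 libraries, and the difference of group means on the log2 scale was -0.04 in the region of exons 2 and 3. PLK1, which helps to build the spindle, gave -1.05 for gain (SE 0.68). PLK1 coverage was 3.64, 4.92, 1.45 and 0.37 in animals 1 to 4 of HGHI, and 1.46, 0.31, 0.39 and 0.55 in those of HGLI. It was 3.12, 2.42, 3.87 and 2.31 for PLK1 in LGHI, and 4.31, 3.04, 0.08 and 4.77 in LGLI. The 5 libraries hold its 5 lowest values. Without them it was -0.67 (SE 0.34, adjusted p = 0.478). CCNA2 (0.45 to 2.28 over the 16 libraries), CCNB2 (0.95 to 3.98), AURKA (0.47 to 6.34) and AURKB (0.52 to 3.47) gave gain estimates of -0.36 to 0.32.

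Genes of the spindle checkpoint and anaphase had negative intake estimates in 6 of 6 cases, and so did 6 of 6 genes of spindle and chromosome structure. The first group includes BUB1, BUB1B, MAD2L1 and TTK, which hold the checkpoint, and CDC20 and UBE2C, which release anaphase. Its median log2 intake difference was -0.34, that of KIF11, KIF20A, KIF23, NUSAP1, BIRC5 and CENPA -0.36. Over all genes 4769 of 9466 were negative, with a median of -0.01. In the 11 libraries the first group was negative in 5 of 6 with a median of -0.18 and the second in 6 of 6 with -0.33, beside 6232 of 9466 and -0.13 for all genes. The second of these groups, motors, spindle proteins and the centromere histone, was also positive for gain in 6 of 6, with a median of 0.25. None passed. KIF11, the motor that pushes spindle poles apart, had the smallest p of these 12 for intake (-0.62, SE 0.35, adjusted p = 0.529, limma). CENPA at 39.1 in LGLI animal 3, a library low in first exons, stood above the other 15 libraries, which were at 1.78 to 15.7.

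Over the 36 genes the estimates leaned lower at high intake. With 16 libraries 26 of the 36 had a negative intake estimate and the median was -0.33, against -0.01 over all genes tested. Without the 5 libraries 34 of 36 were negative and the median was -0.36, while all genes had also moved to -0.13. The median rested in part on HGHI animal 3, a high intake animal low in these genes: it was -0.14 with 15 libraries when that animal was left out, and -0.16, with 28 of 36 negative, when it was left out beside the 5, where all genes were at -0.15. For gain the median was 0.10 with 24 of 36 positive (all genes -0.05), and 0.03 with 21 of 36 without the 5 libraries (all genes -0.04). The gain median had no stable sign: leaving out 1 of the 16 libraries moved it between 0.02 (without HGLI animal 2) and 0.28 (without HGHI animal 3), and with the first-exon index as a term it was -0.05, with 16 of 36 positive. It was -0.12, with 13 of 36 positive, without HGHI animal 1 and the 5. These counts describe genes that move together within an animal and are no test.

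HGLI was also set against LGHI, a comparison built from the same libraries. It gave 0% and 0 of the 36 adjusted (smallest adjusted p 0.367 in both), and 13.5% of all genes and 5 of the 36 unadjusted. RRM1 (0.88, SE 0.35), CDC6 (1.08, SE 0.46) and RRM2 (1.08, SE 0.48) had positive estimates, and CKS2 (-1.26, SE 0.55) and PLK1 (-2.14, SE 0.96) negative ones, each with adjusted p = 0.367 (limma). The sides did not overlap in 29% of all genes and in 2 of the 36, PLK1 and TK1, both lower. Of the 4 HGLI libraries, 3 are low in first exons, which cannot be told apart from the group here. With the 1 remaining animal, whose spread was assumed to be like that of the others, RRM1 was at 0.50 (SE 0.41), CDC6 at 0.84 (SE 0.68), RRM2 at 0.59 (SE 0.62), CKS2 at -0.26 (SE 0.64) and PLK1 at -0.93 (SE 0.55). For CKS2 the estimate also depended on the exon: over the 16 libraries the difference of group means was -1.26 at exon 1 and 0.53 in the region of exons 2 and 3. The median over the 36 was 0.52, and 0.25 without LGHI animal 4.

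Other genes of the same processes, from lists that partly follow the same pathways, showed no call either. For intake, 31 of 42 tested replication genes, 44 of 64 mitosis genes, 20 of 31 cell cycle regulators and 11 of 17 quiescence genes and inhibitors had negative estimates, with medians of -0.26, -0.32, -0.20 and -0.18 beside -0.01 for all genes. In the 11 libraries the medians were -0.23, -0.22, -0.17 and -0.12, beside -0.13 for all genes, so the lists lay closer to the background there. RFC3, a subunit of the clamp loader, averaged 6.53 ± 1.44 in high intake animals and 10.4 ± 2.95 in low intake animals (SD, n = 8 each, log2 -0.65, SE 0.20, adjusted p = 0.529, limma). TPX2, which activates AURKA on the spindle, averaged 4.90 ± 1.44 and 7.41 ± 1.28 (log2 -0.63, SE 0.20, adjusted p = 0.529, limma). For gain the medians of the 4 lists were 0.07, 0.15, 0.15 and 0.08, and those of replication and mitosis turned to -0.02 and -0.01 without the 5 libraries. PRIM1, the primase subunit that starts new DNA strands, averaged 2.72 ± 1.27 in high gain animals and 1.42 ± 0.502 in low gain animals (SD, n = 8 each, log2 0.83, SE 0.28, adjusted p = 0.847, limma). Estimates for markers of several other cell types leaned to 1 side in both comparisons, but no marker passed over the 16 libraries. In the 11 libraries 1 basal marker passed for gain, lower, beside 64 of all genes. Over all 9466 genes and 16 libraries, 4769 estimates were negative for intake and 5106 for gain. For intake, 8 of 10 stroma markers (median -0.70) and 6 of 8 endothelium markers (-0.48) were negative, whereas 11 of 12 suprabasal markers (1.00) and 6 of 9 basal markers (0.71) were positive. In the 11 libraries these medians were -0.58, -0.58, 0.25 and 0.02. For gain, all 8 smooth muscle (median -1.48), 10 stroma (-0.41) and 8 endothelium markers (-0.40) were negative, and without the 5 libraries 8 of 8 (-1.32), 9 of 10 (-0.29) and 5 of 8 (-0.29) were. Summed stroma coverage was 187 to 300.3 in HGHI, 258 to 508 in HGLI, 208 to 395 in LGHI and 368 to 1199 in LGLI. Summed smooth muscle coverage was 8.71 to 51.8, 24.2 to 35.6, 48.4 to 61.1 and 36.4 to 132.6, and summed endothelium coverage 11.7 to 18.7, 10.4 to 23.8, 20.8 to 26.7 and 29.4 to 32.6, in the same order of groups. No stroma, smooth muscle or endothelium marker was at 0 everywhere, and the part of these cell types in the results was not tested.

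Animals of 1 group differed widely. Among the 11 libraries, LGHI animal 4 was lowest in 17 of the 36 genes and among the 3 lowest in 32, and HGHI animal 3 was lowest in 13 and among the 3 lowest in 28. Their median log2 levels relative to the gene means were -0.90 and -0.80. HGHI animal 1 was highest in 13 genes and among the 3 highest in 25 (median 0.67), followed by LGLI animal 1 (0.47) and LGHI animal 3 (0.46). The highest of the 11 animals and the next to lowest were thus in 1 group, HGHI. Summed basal epithelial markers went the same way as the members in HGHI animals 1 and 3. The sum was 1338 in animal 1, the highest of the 11, and 710 in animal 3, the lowest. HGHI animal 4, a library low in first exons and outside the 11, went the other way. Its basal sum was 345, while its median member level was 0.46 relative to the gene means over all libraries. The basal sum was 826 in LGHI animal 4, against a median of 906 for the 11. Summed T and NK cell markers were lowest of the 11 in HGHI animal 3 (12.93) and next lowest in LGHI animal 4 (17.15). They were nearly as low in LGHI animal 2 (17.53, member median -0.02) and highest in HGHI animal 2 (57.42, member median -0.05). CD3G made up a large part of this sum, averaging 12.4 in high intake and 24.2 in low intake animals. CD2, at 0.62 and 0.24, went the other way. Summed stroma markers were 194 in HGHI animal 3 and 208 in LGHI animal 4, but lowest in HGHI animal 2 (187). The part of these sums in the differences was not tested.

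The members varied together from animal to animal. Over the 11 libraries the median Pearson r between 2 members was 0.62 (Spearman rho 0.57) and 64.4% of 630 pairs were over 0.5, against a median of 0.09 and 14.4% for all pairs of genes tested. This is a description, since the genes share libraries and depth. LGHI animal 4 and HGHI animal 3 each lay below the gene mean in 34 of the 36 genes. The median r without these animals was not computed. CDK1 had the highest mean r with the other members (0.71), followed by MCM4 (0.70), CCNB1 (0.70) and MCM3 (0.69). CCND1 was the exception, with a mean r of -0.33 and a positive r with only 2 of 35, and BUB1B (0.13) and GMNN (0.20) were weakly related. BUB1B rests on a median of 6.6 estimated reads and GMNN on 19.2, whereas CDC45, at 2.21 reads, had a mean r of 0.49. The part of depth in these values was not tested. Members had a median r of 0.53 with the mitosis list, 0.43 with replication genes, 0.48 with stroma markers, 0.40 with T and NK cell markers, 0.38 with basal markers, 0.10 with quiescence genes and inhibitors, and -0.13 with suprabasal markers.

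Partner genes were tested as 9 pairs over the 11 libraries by permutation. The test is against no relation at all, whereas any 2 members already had a median r of 0.62. A small p therefore does not set partners apart from other pairs of members. RRM1 and RRM2 had r = 0.95 and rho = 0.96 (permutation p = 1e-05 for both, the smallest that 100000 permutations can give, Benjamini-Hochberg 9e-05), and r = 0.94 without the 2 libraries farthest from the median of RRM1. CDK1 and CCNB1 had r = 0.92 (permutation p = 0.00016, adjusted 0.00048) and rho = 0.88 (permutation p = 0.00064, adjusted 0.00192), with r = 0.87 without 2. CDC20 and UBE2C had r = 0.91 (permutation p = 6e-05, adjusted 0.00027) and rho = 0.90 (permutation p = 0.00045, adjusted 0.00192), with r = 0.63 without 2. AURKB and BIRC5, parts of the chromosomal passenger complex, had r = 0.90 (permutation p = 0.00022, adjusted 0.000495) and rho = 0.86 (permutation p = 0.00122, adjusted 0.00274), with r = 0.89 without 2. These 4 pairs held their relation without the 2 farthest libraries, CDC20 and UBE2C less closely.

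The other pairs were looser, each with r below the upper quartile of 0.78 over all pairs of members. BUB1 and MAD2L1 had r = 0.73 (permutation p = 0.00931, adjusted 0.0168) and rho = 0.67 (adjusted 0.0504), and r = 0.74 without 2. MCM5 and MCM6 had r = 0.69 (permutation p = 0.0198, adjusted 0.0297) and rho = 0.60 (adjusted 0.0724), and r = 0.52 without 2. CDC6 and ORC1 (r = 0.67, permutation p = 0.0233, adjusted 0.03, rho = 0.62, adjusted 0.0724) and MCM3 and MCM7 (r = 0.61, permutation p = 0.0469, adjusted 0.0528, rho = 0.53, adjusted 0.108) rested on 2 libraries each, without which r was 0.20 for both. CDK1 and CCND1 had r = -0.41 (permutation p = 0.207) and rho = -0.42, and -0.32 without 2. The log2 ratio of MCM5 to MCM6 was -1.15 to 0.82 in the 11 libraries and -7.16 to -4.09 in the 5, so the pair came apart in every library low in first exons, while the ratio of RRM1 to RRM2 stayed at 0.85 to 1.72 and 0.93 to 1.41.

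**Figure D4:**
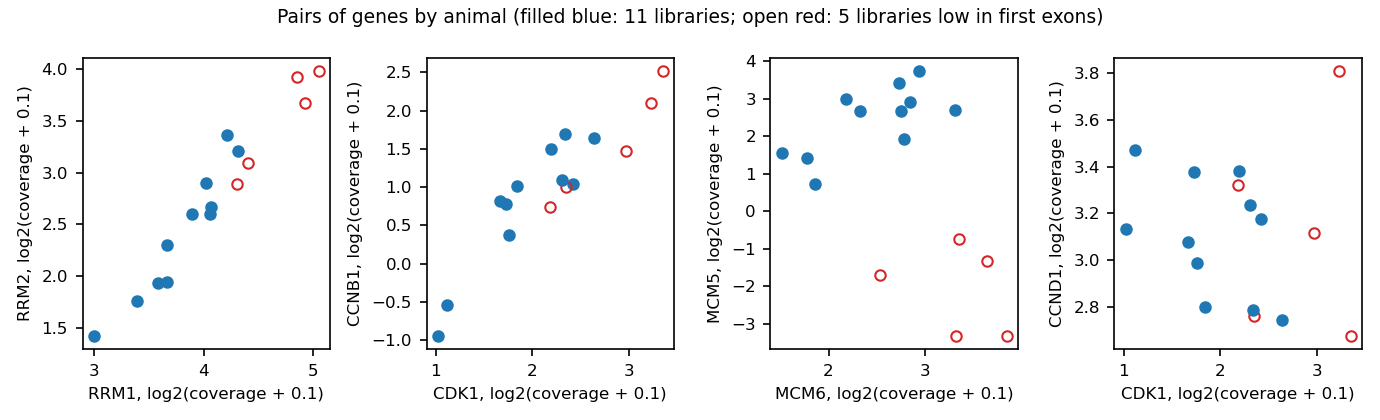
Log2(coverage + 0.1) of 4 pairs of genes, 1 point per animal, filled for the 11 libraries and open for the 5 low in first exons. RRM1 with RRM2 and CDK1 with CCNB1 keep 1 line through both kinds of library, MCM5 drops away from MCM6 in the 5, and CCND1 does not follow CDK1.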

How the data were processed

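Polyadenylated RNA from papillae of 16 steers was sequenced as unpaired reads of 50 bases, per the labels' protocols. The submitters' processing notes name TopHat2 2.08b and UMD3.1; annotation and coverage tool: not given in the sources used here. Signal values of 2351373 deposited regions were used, which from their pattern are the authors' mean coverage per base scaled by 1 factor per library. That factor gave the estimated reads.

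Each gene was represented by the region, among those with exons of that gene alone, with the highest mean over all libraries; 519 regions shared between genes were dropped. The filter (0.5 or more in 4 or more libraries) passed 9466 genes and left out 2558. Log2(value + 0.1), which understates changes of low genes, was modelled with limma 3.58.1 in R 4.3.3 (trend and robust options, 4 group means), after a check on simulated data. Gain, intake, interaction and HGLI minus LGHI were tested two-sided, with Benjamini-Hochberg adjustment over the 9466 genes. The 9 gene pairs were tested two-sided with 100000 permutations. First-exon coverage came from genes with 6 or more exons and a mean of 1 or more in the others.

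The rule for named genes takes CDK1, CCNB1, PCNA, MCM5, CCND1 and RRM2, the 4 members with the smallest p for gain and for intake, 2 for each other contrast, and up to 2 genes of each further list. Members and lists were chosen with earlier results of these data known. Alternatives varied the pseudocount, filter, scaling, exon regions, limma options, a first-exon term and the libraries included.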

Additional observations from a re-analysis of the deposited data

Results flagged for a closer look

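In 15 of 144 groups of 4 animals, 1 animal lay apart from the other 3 by Dixon's criterion. For normally distributed values its limit marks about 1 in 20 groups. Here it was applied to coverage without logs, and the genes share animals, so the 15 cannot be set against that share. In 12 of the 15 the animal was a library low in first exons. LGLI animal 3 was high in CENPA (39.1, others 6.45 to 8.89), RRM1 (30.2, others 14.7 to 16.6), PCNA (13.1, others 5.72 to 6.89), KIF11 (6.11, others 1.91 to 2.38) and KIF23 (5.51, others 1.24 to 1.80). The same animal was low in TK1 (0.04, others 17.7 to 20.6) and MCM4 (1.07, others 10.5 to 12.3). HGLI animal 2 was high in CDK1 (10.1, others 4.46 to 5.27), CCNB1 (5.64, others 1.57 to 1.95), BUB1 (5.09, others 1.74 to 2.18), NUSAP1 (12.1, others 4.73 to 5.95) and BIRC5 (7.53, others 5.09 to 5.43).

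In the other 3 the animal was not low in first exons. LGHI animal 3 was high in TK1 (21.7, others 9.78 to 10.2) and CCNE2 (1.43, others 0 to 0.23). HGLI animal 1 was high in MCM5 (3.67, others 0 to 0.5), but there the other 3 are the libraries low in first exons.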

How the results depend on the processing

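No paired analysis was possible because no replicate number or other pairing of animals stands in the labels. Under 38 alternative settings the member medians of intake and of HGLI against LGHI kept their sign (-0.57 to -0.14 and 0.20 to 0.67), whereas those of gain and interaction did not. The gain median turned to -0.05 with the first-exon index as a term, to -0.03 (14 of 35 positive) with the mean over all exon regions without the 5 libraries, and to -0.12 and -0.09 without the 5 and HGHI animal 1 or LGHI animal 4. In these last settings the interaction median turned to -0.23 and -0.10. The SD between libraries, 0.49 on the log2 scale, is larger than the gain, intake and interaction medians, so it sets no bar for their stability. The cause of these changes and of those that follow was not tested. With the first-exon index as a term, 1348 genes passed for gain (1109 higher, 239 lower), among them 1 member, TK1 (log2 1.64, SE 0.32, adjusted p = 0.012, limma), and these gain estimates reversed: TK1 (from -1.02), MCM5 to 0.92, PLK1 to 0.67, CDK1 to -0.18, CCNB1 to -0.40, PCNA to -0.35 and RRM2 to -0.0187. Intake reversed there for MCM5 (-0.13) and CCND1 (0.0304). Without the 5 libraries, 64 genes passed for gain, all lower, and 2 for HGLI against LGHI; gain reversed for CCNB1 (-0.13) and CCND1 (0.00537), intake for MCM5 (-0.45) and the interaction for CCNE2 (-0.68). Without these and with the mean over all exon regions, a setting chosen after seeing the data, 142 genes passed for gain and 3 for intake. Gain then reversed for CCNB1 (-0.18) and PCNA (-0.00102), intake for MCM5 (-0.16) and the interaction for CKS2 (-0.44). With that mean over 16 libraries, 2 genes passed for intake.

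With each of the 16 libraries left out in turn, 0 to 71 genes passed for gain, 0 to 1 for intake and 0 to 1 for HGLI against LGHI, in no case a member. The gain estimate of CCNB1 ran from -0.23 to 0.24 and the intake estimate of CCND1 from -0.14 to 0.0246. Left out beside the 5, each of 10 libraries was tried; HGLI animal 1 could not be, being the last of its group. Rescaling by the upper quartile moved the median of all genes for gain from -0.05 to 0.08 and that of the members from 0.10 to 0.23. Depth limits CCNE2, CDC45, TTK and BUB1B most, at medians of 1.97, 2.21, 4.71 and 6.6 estimated reads.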
